A study of Rattus norvegicus with 2 samples.

Results

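Mx1 and Mx2, the interferon-induced Mx GTPases of the rat, were both higher in H9c2 cells given a Cacnb4 plasmid than in cells given an empty vector. The genes were taken by symbol from the deposited expression table and held 10 of its 32767 transcripts, 9 named Mx1 and 1 named Mx2. H9c2 is a myoblast line derived from embryonic rat heart, of strain BD1X per the labels. Both groups were transfected, 1 with a plasmid for the calcium channel subunit beta4, encoded by Cacnb4, and 1 with a vector lacking it. The series asks what raising this subunit changes in gene expression, and its title names antiviral factors. Each group was 1 library, so no difference below has a replicate check and none was tested here. The labels give no dose of plasmid, no time after transfection and no untransfected cells.

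Mx proteins are large GTPases related to the dynamins. They form rings and filaments around viral ribonucleoproteins and block early steps of replication of influenza viruses, rhabdoviruses and others. Their genes are nearly silent in most resting cells and are switched on by type I and type III interferon through transcription factors that include Stat2 and Irf9, which is why Mx transcripts are widely read as a sign of interferon signalling. In the rat, Mx1 is a nuclear protein and Mx2 a cytoplasmic one, and Mx3 is a close relative of Mx2. RefSeq lists Mx3 as a synonym of Mx2, so the values given for Mx2 may include reads of both.

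In the reference annotation used here, 1 window around a gene start was held for Mx1, and it is printed because the interferon-stimulated response element usually lies just upstream of such a start. The window runs from 250 bases before to 50 bases after the start (RefSeq, GRCr8, chr11:50294557-50294856, minus strand, printed 5′ to 3′ along the gene).

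Mx1: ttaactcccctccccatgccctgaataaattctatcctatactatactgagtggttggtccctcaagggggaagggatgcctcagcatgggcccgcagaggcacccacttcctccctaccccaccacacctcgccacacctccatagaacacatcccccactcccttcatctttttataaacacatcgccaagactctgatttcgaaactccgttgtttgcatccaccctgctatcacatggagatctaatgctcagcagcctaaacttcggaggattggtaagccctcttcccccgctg

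No part of the Mx1 window is in capitals, because it held 0 matches to the core of the interferon-stimulated response element, GAAANNGAA, on either strand. That core was found in 9.71% of all 33469 windows of this length. The shorter core of the interferon regulatory factor family, AANNGAAA, which can overlap it, had 0 matches too and was in 26.4% of windows. The core of the gamma-activated site, TTCNNNGAA, also had 0 and was in 8.87%. RefSeq lists 12 transcripts for Mx1, whose starts may differ, and this window covers 1 start. Mx2 has no window among those used.

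Mx2 was the more abundant of the pair in both libraries. Levels are given as FPKM, which corrects fragment numbers for the length of a transcript and for sequencing depth. This is the unit read from the layout of the table, since its header names none. Mx2 was at 276 FPKM in the Cacnb4 library and 28.3 FPKM in the empty vector library, a ratio of 9.75. Its single transcript, TCONS_00006911, lies on chromosome 11 from 37548649 to 37572716 in genome build rn4. By level it was in place 347 of 9539 measured genes in the Cacnb4 library and in place 2898 in the empty vector library. A gene was counted as measured when the FPKM of its transcripts summed to 1 or more in at least 1 library.

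Mx1, summed over its 9 transcripts, was at 29.5 FPKM in the Cacnb4 library and 2.61 FPKM in the empty vector library, a ratio of 11.3. Its locus lies on the same chromosome from 37438472 to 37464077, with a gap of 84572 bases to Mx2. Mx1 was thus a low transcript in the empty vector library, in place 8403 by level, and was in place 2807 in the Cacnb4 library. The empty vector cells were not free of either Mx transcript.

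The proportion between both genes differed little next to their ratios. Mx1 made up 9.66% of their summed FPKM in the Cacnb4 library and 8.43% in the empty vector library, and the sum itself was 306 FPKM against 30.9 FPKM, a ratio of 9.89. On the log2 scale after adding 1 FPKM, which understates differences of low genes, the log2 ratio was 3.24 for Mx2 and 3.08 for Mx1. These are places 37 and 41 among the measured genes, whose median log2 ratio was -0.03. Both genes were past 2-fold on that scale, as were 185 of all 9539 measured genes in the higher direction, which is 1.94% of them.

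The sum hides an uneven split of Mx1 over its transcripts. TCONS_00007159 was at 25.9 FPKM in the Cacnb4 library and 0.377 FPKM in the empty vector library, a ratio of 68.6. TCONS_00007157 was at 2.19 FPKM in the Cacnb4 library and 2.21 FPKM in the empty vector library, a ratio of 0.994. The difference of Mx1 between the libraries therefore lay almost wholly on the first of these, which carried 94.6% of it.

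The leading transcript of Mx1 was a different one in each library. TCONS_00007159 held 87.5% of the Mx1 sum in the Cacnb4 library and 14.5% in the empty vector library. TCONS_00007157 held 7.43% in the Cacnb4 library and 84.6% in the empty vector library. Of the other 7, TCONS_00007156 was at 1.10 FPKM in the Cacnb4 library and 0.00749 FPKM in the empty vector library. TCONS_00007155 was at 0.397 FPKM in the Cacnb4 library and 0.0158 FPKM in the empty vector library, and neither made up more than 3.71% of the sum in a library. The remaining 5 are listed at 0 in both libraries.

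A listed 0 need not mean an absent transcript. Of all transcripts, 908 or 2.77% are listed at 0 in both libraries, among them the single transcript of Eif2ak2, the kinase PKR that most cells express. Without TCONS_00007157, the Mx1 sum was 27.3 FPKM in the Cacnb4 library and 0.400 FPKM in the empty vector library, a ratio of 68.3, so the ratio of 11.3 rests on that transcript's level in the empty vector library. All 9 transcripts are listed with the same locus, and how reads were assigned among them is the estimate of the authors' program. Mx1 and Mx2 also resemble each other in sequence, so reads can be split between the genes.

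**Figure D1:**
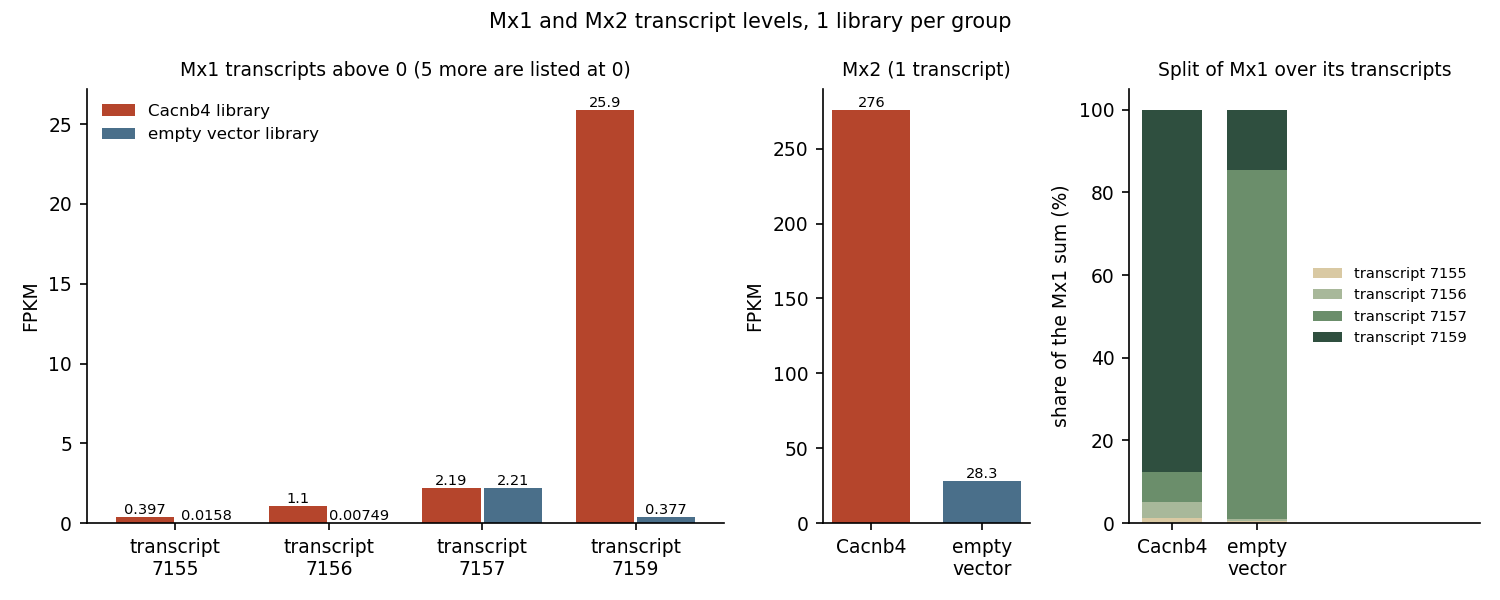
FPKM of the 4 Mx1 transcripts above 0 (left), of the single Mx2 transcript (middle, on its own axis) and the share of each transcript in the Mx1 sum in percent (right), with 1 bar per library and no error bars because each group is 1 library. Transcript 7159 stands at 25.9 FPKM in the Cacnb4 library and 0.377 FPKM in the empty vector library, while transcript 7157 is at 2.19 and 2.21 FPKM in the same libraries.

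Such a split was uncommon but not unique to Mx1. There were 1313 genes with at least 2 transcripts above 0 and a sum of at least 1 FPKM in both libraries, and in 138 of them, 10.5%, the leading transcript differed between the libraries. For Mx1, 77.2% of the sum sat on other transcripts in the Cacnb4 library than in the empty vector library, place 6 of the 1313. The median of that share was 4.77%. These counts describe 2 libraries, and the reads behind each transcript are not given in the files used here.

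The authors' deposited table marked 2 of the 10 Mx transcripts as significant and higher in the Cacnb4 library, against 0.674% of all its transcripts marked in that direction. For Mx2 the authors' deposited table gives a p-value and a q-value of 0, and for TCONS_00007159 of Mx1 a p-value of 1.07e-10 and a q-value of 5.13e-08. For TCONS_00007157 of Mx1 the authors' deposited table lists a p-value of 0.995. These tests set the reads of 1 library against those of the other and do not cover the spread between cultures.

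**Figure D2:**
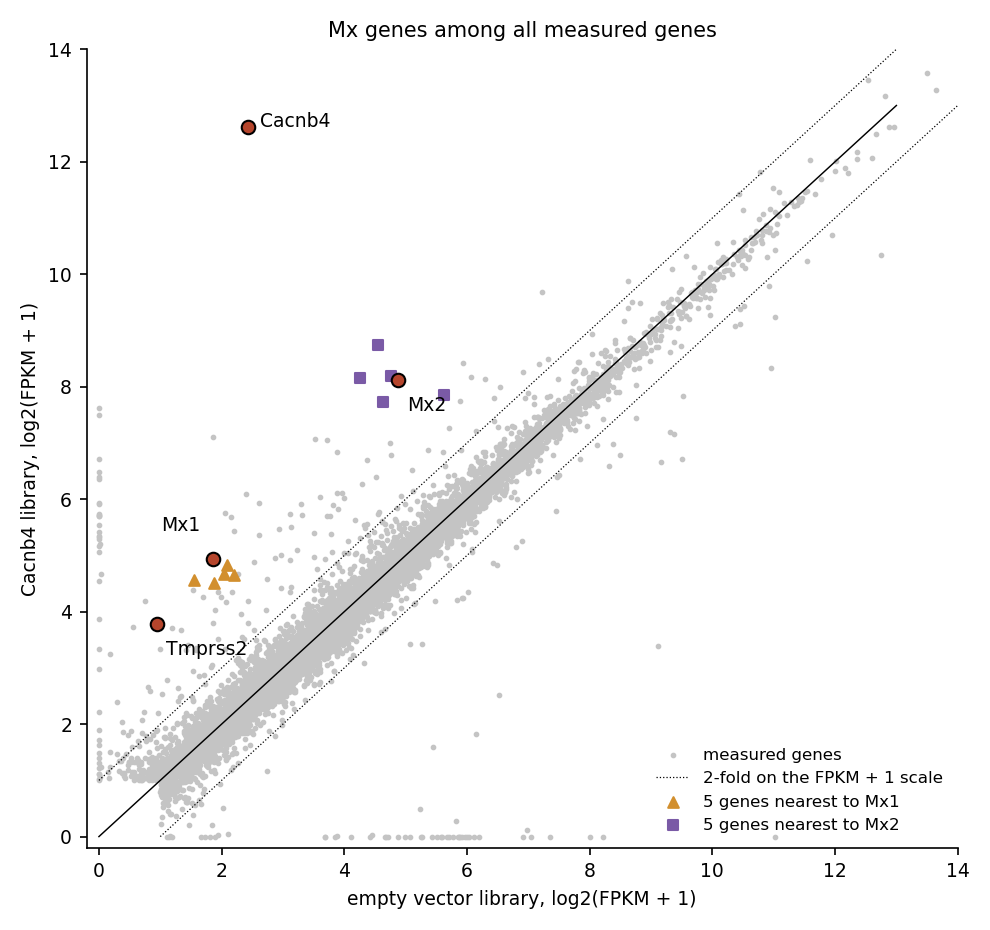
Levels of the 9539 measured genes as log2(FPKM + 1), with the Cacnb4 library on the vertical axis and the empty vector library on the horizontal axis; the solid line marks equal values and the dotted lines 2-fold. Mx1 and Mx2 lie above the upper dotted line with log2 ratios of 3.08 and 3.24, and the 5 genes nearest to each are drawn as triangles and squares.

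The genes with levels most like those of each Mx gene were found by distance. Likeness was the distance between points of log2(FPKM + 1) in both libraries, so it rests on 2 values per gene and says nothing about shared control. Nearest to Mx2 were Ifit1, Usp18, Isg15, Ifit3 and Apol9a, at distances between 0.13 and 0.79. Ifit1, an RNA-binding antiviral protein, was at 290 FPKM in the Cacnb4 library and 26.2 FPKM in the empty vector library. Usp18, the protease that removes Isg15 from proteins, was at 210 FPKM in the Cacnb4 library and 23.9 FPKM in the empty vector library.

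Nearest to Mx1 were RT1-A1, Uba7, Ifih1, RT1-CE14 and Oas1i, at distances between 0.26 and 0.48. RT1-A1, a class I histocompatibility gene, was at 27.3 FPKM in the Cacnb4 library and 3.23 FPKM in the empty vector library. Uba7, the enzyme that activates Isg15, was at 24.3 FPKM in the Cacnb4 library and 3.11 FPKM in the empty vector library. Ifih1, a sensor of double-stranded RNA, was at 21.7 FPKM in the Cacnb4 library and 2.66 FPKM in the empty vector library. The Mx genes therefore lay in different level classes, with Mx2 beside Ifit1 and Isg15 and Mx1 beside Ifih1 and class I genes. The level of Mx2 was 9.35 times that of Mx1 in the Cacnb4 library and 10.9 times in the empty vector library. RT1 and Oas genes have near copies, so their single values are uncertain.

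Of these 10 nearest genes, 6 had a window around a gene start. The shorter core AANNGAAA was in 6 of the 6 and in 26.4% of all windows. The gamma-activated site core was in 0 of the 6 and in 8.87% of all windows. The response element core that the Mx1 window lacked was in 4 of the 6. The stretches are shown because they give the element as it stands in genes whose levels were like those of Mx1 and Mx2. Capitals mark GAAANNGAA or its reverse complement, and where matches overlap they are run together. The windows are those of RefSeq on GRCr8. The stretch of Ifih1 lies at chr3:67684011-67684035 on the minus strand, that of Oas1i at chr12:41285182-41285212 on the plus strand, those of Ifit3 at chr1:241527275-241527299 and chr1:241527294-241527318 on the plus strand, and that of Apol9a at chr7:111028262-111028292 on the minus strand.

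Ifih1: agagaatcGAAACAGAAaccgatgt

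Oas1i: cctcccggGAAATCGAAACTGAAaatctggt

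Ifit3, upstream: aagtctgtTTCAGTTTCtagtttcc

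Ifit3, downstream: gtttccacTTCCCTTTCacaaacgt

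Apol9a: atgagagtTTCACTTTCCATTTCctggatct

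The matches began between 24 and 71 bases before the gene start. The 4 genes were not chosen by their sequence, but 6 windows are too few to set a share of them beside the 9.71% of all windows. A match is a run of letters and does not show that a factor bound there, and 0 matches in the Mx1 window say nothing about other starts of that gene.

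Genes next to Mx1 and Mx2 were mostly at low levels in both libraries. The table holds 7 other named genes within 500 kb of an Mx locus, of which Dscam, Bace2, Fam3b and Ripk4 were under 1 FPKM in both libraries. Fam3b lies between the Mx genes and was at 0.107 FPKM in the Cacnb4 library and 0.130 FPKM in the empty vector library. C2cd2 was at 7.77 FPKM in the Cacnb4 library and 7.51 FPKM in the empty vector library, and Zfp295 was at 5.53 FPKM in the Cacnb4 library and 6.39 FPKM in the empty vector library. Fam3b was thus below the level counted as measured, so its values cannot show whether the higher levels of Mx1 and Mx2 extended to it.

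One neighbour differed from the others. Tmprss2, a serine protease of the cell surface that cleaves the entry proteins of influenza viruses and coronaviruses, is listed with a locus whose nearer edge lies 4084 bases beyond Mx2. It was at 12.8 FPKM in the Cacnb4 library and 0.917 FPKM in the empty vector library, a ratio of 13.9 and a log2 ratio of 2.84 on the FPKM + 1 scale. It was the only one of the 3 measured neighbours past 2-fold, in place 47 of all measured genes. Tmprss2 was under 1 FPKM in the empty vector library, so it counted as measured only through the library in which it was higher.

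The difference of Tmprss2 lay on 2 of its 3 transcripts. TCONS_00007162 was at 9.52 FPKM in the Cacnb4 library and 0.515 FPKM in the empty vector library, and TCONS_00007161 was at 3.16 FPKM in the Cacnb4 library and 0.355 FPKM in the empty vector library. The authors' deposited table marked both, with q-values of 4.42e-13 and 0.0430. TCONS_00007163 was at 0.0813 FPKM in the Cacnb4 library and 0.0475 FPKM in the empty vector library. Whether reads from beyond the end of Mx2 count towards Tmprss2 was not tested, and the labels do not say if the libraries keep strand.

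The table was also searched for other genes past 2-fold in the higher direction that lie close to each other. Of the measured genes, 519 lay within 100 kb of another gene past 2-fold in the higher direction. Of these 519, 70 were past 2-fold in that direction themselves, or 13.5%, beside 1.94% of all measured genes. Clusters of related genes and of microRNA precursors are included in these counts. The window around the start of Tmprss2 held 0 matches to each of the 3 motifs. In the 500 kb window there were also 7 transcripts without a gene name, the nearest 238547 bases from an Mx locus. Their ratios ran from 0.506 to 2.55, with 0 of the 7 marked by the authors in their deposited table.

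**Figure D3:**
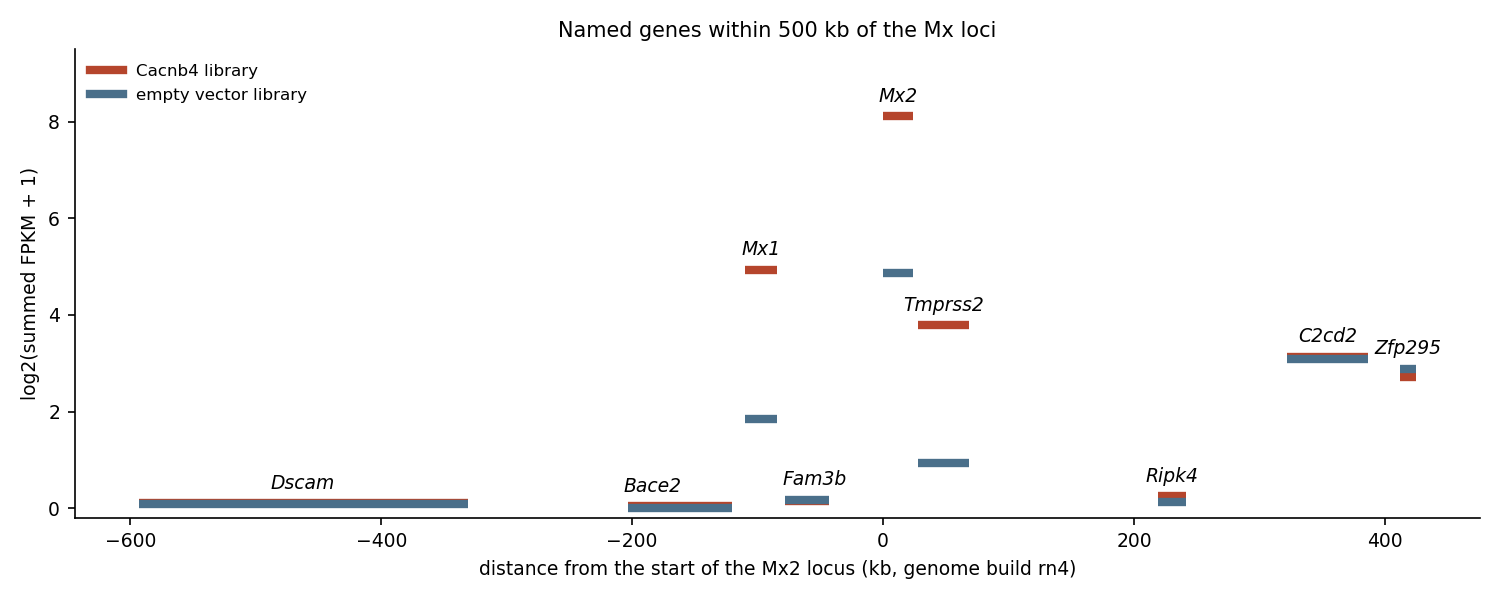
Named genes within 500 kb of the Mx loci, drawn to scale along the horizontal axis as distance in kb from the start of the Mx2 locus, with the level of each library as log2(summed FPKM + 1) on the vertical axis. The bars of Mx1, Mx2 and Tmprss2 are far apart between the libraries, and those of the other 6 genes nearly coincide.

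Some genes on a list of type I interferon signalling were higher. The list spans ligands, receptor chains, kinases, transcription factors and feedback inhibitors. The list held 13 genes, 12 of them in the table and 11 measured, of which 5 were past 2-fold in the higher direction and 0 in the lower direction. Of all measured genes, 1.94% were past 2-fold in the higher and 1.08% in the lower direction. With 5 FPKM added in place of 1, the list's count of 5 was 3, and with a minimum of 5 FPKM it was 4. The list's median log2 ratio was 0.90. Among the ligands, Ifnb1, which encodes interferon beta, was at 3.64 FPKM in the Cacnb4 library and 0.671 FPKM in the empty vector library, past 2-fold but not marked in the authors' deposited table (q-value 0.357). Ifnb1 thus counted as measured only through the Cacnb4 library, and Ifna1 was under 1 FPKM in both libraries.

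A receptor chain and both kinases of the receptor were at like levels. Ifnar1, a receptor chain for type I interferon, was at 16.1 FPKM in both libraries. Jak1 was at 45.8 FPKM in the Cacnb4 library and 43.4 FPKM in the empty vector library, and Tyk2 was at 4.42 FPKM in the Cacnb4 library and 5.06 FPKM in the empty vector library. None of these 3 genes was past 2-fold. Ifnar2, the other receptor chain, was not analysed here.

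Among the transcription factors that act downstream of the receptor, Stat2 and Irf7 were past 2-fold. Stat2 was at 127 FPKM in the Cacnb4 library and 25.7 FPKM in the empty vector library. Irf9, which binds Stat2, was at 46.3 FPKM in the Cacnb4 library and 24.4 FPKM in the empty vector library, a ratio of 1.90, and it is not marked in the authors' deposited table. Irf7, which amplifies interferon transcription, was at 341 FPKM in the Cacnb4 library and 60.4 FPKM in the empty vector library, while Irf3, which starts it, was at 30.8 FPKM in the Cacnb4 library and 25.3 FPKM in the empty vector library.

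The feedback inhibitors of the pathway were among its higher members. Usp18, which also silences the type I receptor, had a ratio of 8.80. Socs1, an inhibitor of Jak kinases, was at 5.93 FPKM in the Cacnb4 library and 1.16 FPKM in the empty vector library, with a q-value of 0.248 in the authors' deposited table. Of a short list on other interferon receptors, 4 genes were measured, Ifngr1, Ifngr2, Jak2 and Il10rb. Past 2-fold were 0 of the 4 in the higher direction, beside 1.94% of all measured genes, and 0 in the lower, beside 1.08%. These counts are near those shares. The median log2 ratio of the 4 genes was 0.07. The largest was that of the kinase Jak2, at 0.47, and Ifngr1, Ifngr2 and Il10rb lay between -0.04 and 0.12.

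Most other antiviral effectors on the list were higher as well. The list was written with earlier results of these data known. Of its 31 effectors 24 were measured. Past 2-fold were 20 in the higher direction, beside 1.94% of all measured genes, and 0 in the lower, beside 1.08%. The list's median log2 ratio was 2.54. Some of the 20 were under 1 FPKM in the empty vector library and so counted as measured only through the Cacnb4 library. The count past 2-fold in the higher direction was 20 with no minimum and 19 with a minimum of 5 FPKM. The largest log2 ratios were those of Ifit3 at 4.20, Isg15 at 3.92, Oasl2 at 3.70 and Ifit2 at 3.54. Oas2 and Eif2ak2 are listed at 0 in both libraries. The 4 measured effectors not past 2-fold were Adar, Ifitm1, Ifi27l2b and Ifitm2, and Adar, with a ratio of 2.06 in FPKM, lay just under the threshold on the FPKM + 1 scale.

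GTPases induced by interferon were higher, and those of ordinary membrane traffic were at like levels in both libraries. Of 12 listed guanylate-binding and immunity-related GTPases only 5 are in the table, Gbp2, Gbp5, Igtp, Irgm and Ifi47, and these were measured. All 5 were past 2-fold in the higher direction, beside 1.94% of all measured genes. Their median log2 ratio was 2.16. Gbp5 and Ifi47 were under 1 FPKM in the empty vector library, so they counted as measured only through the Cacnb4 library. The count past 2-fold was 5 with no minimum and 4 with a minimum of 5 FPKM. Ifi47 was at 17.3 FPKM in the Cacnb4 library and 0.685 FPKM in the empty vector library, and Gbp2 at 103 FPKM in the Cacnb4 library and 19.6 FPKM in the empty vector library. Of 10 measured dynamins, mitofusins, atlastins and Opa1, all large GTPases of membranes, 0 were past 2-fold. Of all measured genes, 1.94% were past 2-fold in the higher and 1.08% in the lower direction, so 0 of 10 is near those shares. The log2 ratios of these 10 genes lay between -0.11 for Atl1 and 0.12 for Atl2 and Atl3. The dynamin Dnm2 was at 34.1 FPKM in the Cacnb4 library and 34.0 FPKM in the empty vector library, and the mitochondrial dynamin Dnm1l at 28.9 FPKM in the Cacnb4 library and 28.7 FPKM in the empty vector library. Mx2, at 276 FPKM, was thus above every dynamin on the list in the Cacnb4 library, and below Dnm2 and Dnm1l in the empty vector library.

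The last list held proteins reported to bind human or mouse Mx proteins, or to act with such partners. Of 13 listed, 9 were measured, with a median log2 ratio of -0.08. Past 2-fold in the higher direction were 2, beside 1.94% of all measured genes. The 2 were components of nuclear bodies, Sp100 at 83.1 FPKM in the Cacnb4 library and 21.8 FPKM in the empty vector library, and Daxx at 52.5 FPKM in the Cacnb4 library and 22.3 FPKM in the empty vector library. The authors' deposited table marked Daxx, with a q-value of 0.00997, and did not mark Sp100, with a p-value of 0.401. The RNA helicase Ddx39b, a partner of Mx proteins in influenza infection, was at 225 FPKM in the Cacnb4 library and 238 FPKM in the empty vector library. Among the other partners, Hipk2 had a log2 ratio of 0.36 and the calcium-permeable channel Trpc6 one of 0.29.

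**Figure D4:**
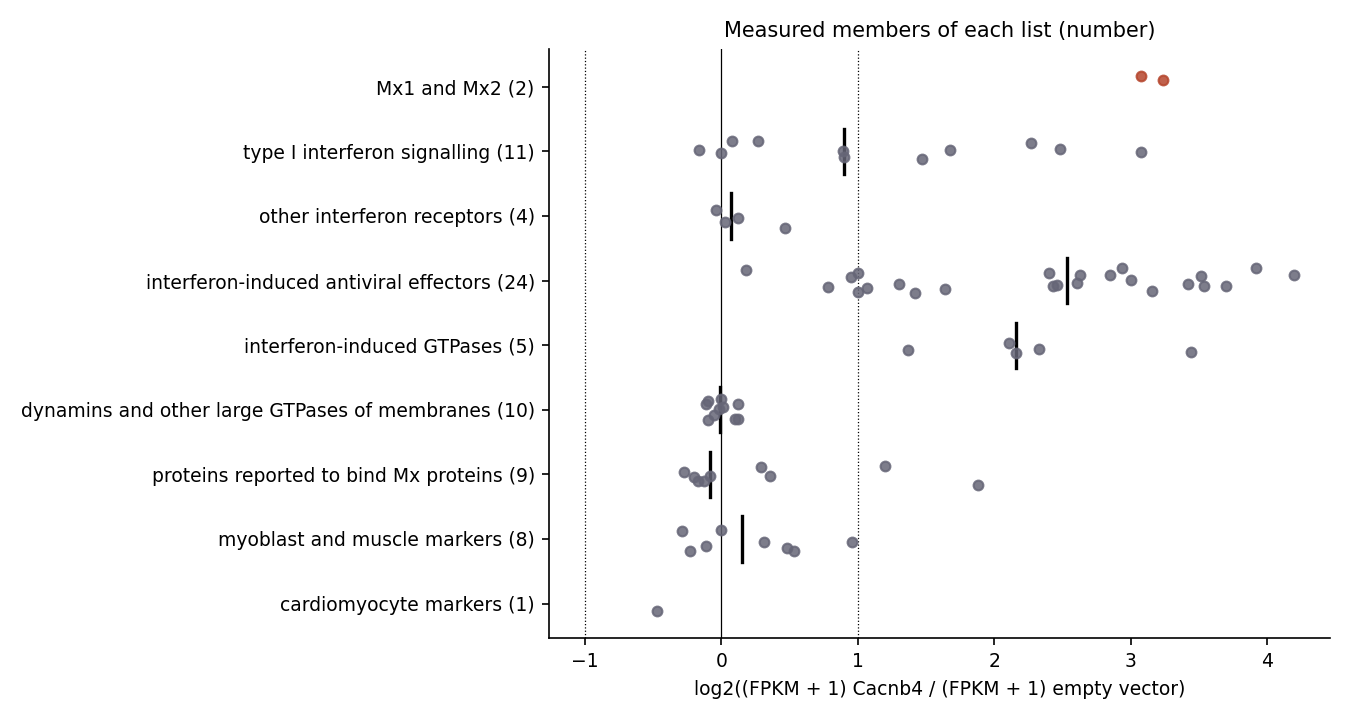
Log2 ratio of the Cacnb4 library over the empty vector library on the FPKM + 1 scale, 1 point per measured gene, with Mx1 and Mx2 in the top line and 1 line per list (number of measured genes in brackets; black bars are medians, dotted lines 2-fold). Mx1 and Mx2 lie at 3.08 and 3.24, within the spread of the antiviral effectors, and the dynamins lie between -0.11 and 0.12.

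The libraries and the cells were checked as follows. Cacnb4 itself was at 6266 FPKM in the Cacnb4 library and 4.37 FPKM in the empty vector library. There were 14939784 mappable reads in the Cacnb4 library and 13569897 in the empty vector library. All 8 listed markers of myoblasts and muscle were measured and 0 were past 2-fold. Of all measured genes, 1.94% were past 2-fold in the higher and 1.08% in the lower direction, so 0 of 8 is near those shares. Myog was at 71.9 FPKM in the Cacnb4 library and 51.3 FPKM in the empty vector library. The authors' deposited table marked 2 of the 8 markers, Myh3 with a q-value of 0.0310 and 1 transcript of Tnnt3 with a q-value of 0.0180. Of all 32767 transcripts, 228 were marked. Myh3 encodes a myosin of developing muscle, and its level of 4.57 FPKM in the Cacnb4 library against 1.86 FPKM in the empty vector library gave a log2 ratio of 0.96. The list's count past 2-fold was 1 with a pseudocount of 0.1 FPKM and 1 with the highest transcript of each gene. Of 5 cardiomyocyte markers, the 4 genes Myh6, Nppa, Myl7 and Ryr2 were under 1 FPKM in both libraries. The other, Tnni3, was at 1.46 FPKM in the Cacnb4 library and 2.42 FPKM in the empty vector library. Leukocyte markers were looked at as well, and whether other cells contributed Mx transcripts was not tested. All 8 listed, among them Ptprc, Cd68 and Itgam, were at or under 0.741 FPKM in each library, with a summed level of 2.17 FPKM in the Cacnb4 library and 1.61 FPKM in the empty vector library, and Lyz2 was listed at 0 in the Cacnb4 library. The 3 endothelial markers in the table were at or under 0.342 FPKM. In bulk RNA, more Mx transcripts per cell and more cells that express Mx genes cannot be told apart.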

How the data were processed

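RNA was measured in 2 libraries of rat H9c2 cells, grouped by their titles. The deposited read counts give raw and mappable reads; per the file headers, adaptors were trimmed and only reads of at least 10 bases kept. The submitters' processing notes name TopHat 1.4.1 and rn4; which program estimated levels is not given here. The authors' values per transcript were read as FPKM from their layout. The authors' deposited table holds 1 p-value and 1 q-value for each transcript; marked transcripts have a q-value below 0.05. The authors' table of marked transcripts alone and their pathway tables were not used here.

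FPKM was summed per symbol (16783 symbols), leaving out 13533 transcripts without a name and 17 whose name is a date. Log2 ratios are log2((FPKM Cacnb4 + 1)/(FPKM empty vector + 1)), and a gene was past 2-fold at a log2 ratio of 1 or more in size. With 1 library per group no test was run and no counting interval is given, since reads per transcript are not in the files used here. Members, lists and rules were chosen with earlier results of these data known. Named were both Mx genes, Cacnb4, named genes within 500 kb, measured genes of the type I interferon list, up to 4 genes with the largest log2 ratios per other list and the 5 nearest genes to each Mx gene; Gbp5, Irgm, Dnm2, Dnm1l, Adar, Ifitm1, Ifi27l2b, Ifitm2, Oas2, Eif2ak2 and markers were named after their values were seen. Values of 1 listed gene are not reported here. Sequences are from RefSeq (GRCr8); both Mx symbols matched its gene table, and a planned comparison of the Mx proteins was not run. Locus coordinates are those of the table, which does not say whether starts count from 0 or 1. Alternatives were a pseudocount of 0.1 or 5 FPKM, the highest transcript in place of the sum, a rescaling to a median ratio of 1, no minimum or one of 5 FPKM, a q-value below 0.01, a 100 kb window and the shorter motif. The sums and counts were tested on simulated data. Python 3.11.15, numpy 2.4.6, pandas 2.3.3 and matplotlib 3.10.9 were used.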

Additional observations from a re-analysis of the deposited data

How the results depend on the processing

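Mx1, Mx2 and Tmprss2 were higher in the Cacnb4 library under the alternatives run for their ratios, which were both pseudocounts, the highest transcript and the rescaling. In that order, their log2 ratios were 3.45, 3.28 and 3.66 with a pseudocount of 0.1 FPKM, 2.18, 3.08 and 1.59 with 5 FPKM, and 3.12, 3.28 and 2.88 after rescaling, which divides the Cacnb4 library by a median ratio of 0.976. With the highest transcript in place of the sum, Mx1 was at 4.29 and in place 25, since TCONS_00007157 is then left out, and Tmprss2 was at 2.80. Mx2 took place 60 with a pseudocount of 0.1 FPKM and place 24 with 5 FPKM. The signalling list had 3 genes past 2-fold with 5 FPKM, and the muscle markers 1 with 0.1 FPKM and 1 with the highest transcript. The shorter motif was found in 8820 windows, against 3251 with the longer core, as its letters allow more matches. The other 139 of 157 values stayed within 1.5 times the count or at the same 2 decimals. A q-value below 0.01 kept both marked Mx transcripts. Each group is 1 library, so no library could be left out, and no paired analysis was possible because there is 1 library per group. Reads per transcript are unknown, so no counting error is given for the low Mx1 transcripts.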
